A study of Mus musculus with 9 samples.

Results

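Macrophages of adult tissues come from more than one source: progenitors of the embryonic yolk sac, which seed the first macrophages of the body, and hematopoietic stem cells, which later give rise to monocytes and macrophages through the bone marrow. Both kinds depend on macrophage colony-stimulating factor (M-CSF), the ligand of the receptor encoded by Csf1r. The comparison described here sets macrophage lines that multiply in culture and were grown from yolk sac (YS lines 1 to 3) against lines grown from bone marrow (BM lines 1 to 3), across the genes with at least 1 TPM (transcripts of a gene relative to all transcripts of a library, scaled to a fixed total) in at least 3 of these 6 libraries. These 6 libraries are part of a series of 9, and 11411 of the 24411 genes in the table passed the filter. The question it addresses is which genes differ between lines of the 2 origins grown in the same medium.

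YS lines had been started from cells of C57BL/6 embryos at E9.5 and BM lines from cells of adult C57BL/6 bone marrow. All were kept with recombinant human M-CSF at 100 ng/mL in medium with 10% fetal calf serum, and the study's methods name no engineered allele in them. A line was a culture raised from its own dish or well out of cells pooled from several mice, so the 3 lines of a group are neither clones nor separate animals, and p-values measure the spread between such cultures. By the study's methods, most adherent BM cells stopped growing and started dying before colonies appeared, while YS cells did not necessarily stop. BM cultures also took longer to reach stable growth. Origin cannot be told apart from these differences in derivation. The fetal liver lines of the series (FL lines) entered the fit as a further group, and their levels are named only for reference. In these bulk libraries, fewer cells with a transcript and less of it per cell cannot be told apart. TPM holds no record of read number, so the depth is unknown and no counting interval is given.

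The defining markers of macrophages were present in both groups. Csf1r reached 1085.83, 1881.98 and 1889.35 TPM in YS lines 1 to 3, against 1879.38, 1843.09 and 1810.88 TPM in BM lines 1 to 3. The 2 groups overlapped, and the difference was not called (log2 difference -0.23, standard error 0.21, limma adjusted p = 0.42). Of the 18 macrophage identity genes, all passed the filter, and 5 were called, against 12.9% of all genes: Fcgr1, Aif1 and Maf higher in YS lines, and Lyz2 and Ctss lower (Lyz2 not without BM line 2, adjusted p = 0.126). The 13 not called included Spi1, the transcription factor PU.1, the surface proteins Adgre1 (F4/80), Itgam (CD11b), Cd68 and Ptprc (CD45), and the signaling adaptors Tyrobp and Fcer1g. No epithelial marker passed the filter, with at most 0.27 TPM summed over the list in a YS line and 0.11 TPM in a BM line. For fibroblasts 1 of 13 markers passed, for lymphoid cells 2 of 13 and for neutrophil granules 2 of the 14 in the table. Of the 2 neutrophil granule genes, Cebpe was called higher in YS lines and S100a8 lower. Markers of other leukocytes that passed were called higher in 3 of 3 for monocytes, 3 of 5 for dendritic cells and 2 of 2 for mast cells and basophils (2, 2 and 2 without BM line 2), against 7.53% of all genes. Each of these 3 counts was 1 in at least 1 alternative fit. Cebpe, the mast cell marker Hdc and the endothelial marker Egfl7 reached 1 TPM in no BM line, so the filter fixed their direction. The summed level of the monocyte markers lay between 34.19 and 112.24 TPM in YS lines and between 10.47 and 18.87 TPM in BM lines, and that of the dendritic cell markers, mostly Bst2, which is also an interferon-stimulated gene, between 908.04 and 1906.39 TPM and between 240.53 and 528.14 TPM. That of the mast cell and basophil markers lay between 18.33 and 39.01 TPM in YS lines and between 0.58 and 4.75 TPM in BM lines. Of 4 endothelial markers, Egfl7 was called higher, of 3 endoderm markers Trf was called higher, and of 2 megakaryocyte markers Vwf was called lower (not without BM line 2). The part of such cells in the results was not tested. The T cell receptor subunits Cd3d, Cd3e and Cd3g and the granule genes Elane and Ctsg were listed at 0 in all 6 lines. Timd4 and Lyve1, markers of resident macrophages, were at 0.08 TPM or less in all 6 lines.

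BM line 2 stood apart from BM lines 1 and 3, and values from it enter each result given here. For 45 genes that did not exceed 0.5 TPM in BM lines 1 and 3 and reached 20 TPM in YS line 2, the level in BM line 2 was at the median 14.1% of that in YS line 2 (quartiles 10.7% and 17.7%). Only 2 of the 45 were at 0.5 TPM or less in BM line 2. Genes near 0 in BM lines 1 and 3 and in YS line 2 but high in another YS line were few: 4 of the 5 high in YS line 3 and the 1 high in YS line 1 were at 0.5 TPM or less in BM line 2. With the roles exchanged, the level in YS line 2 was at the median 0.378% of that in BM line 2 over 23 genes. Globin genes also set BM line 2 apart: over 7 of them, including the embryonic Hbb-y and Hba-x, the summed level was 476.98 TPM in BM line 2 and between 0.30 and 8.62 TPM in the other 5 lines. How these transcripts came to be in the library was not tested, and log2 differences without BM line 2 are given beside those it moved by more than 1.5-fold.

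**Figure D1:**
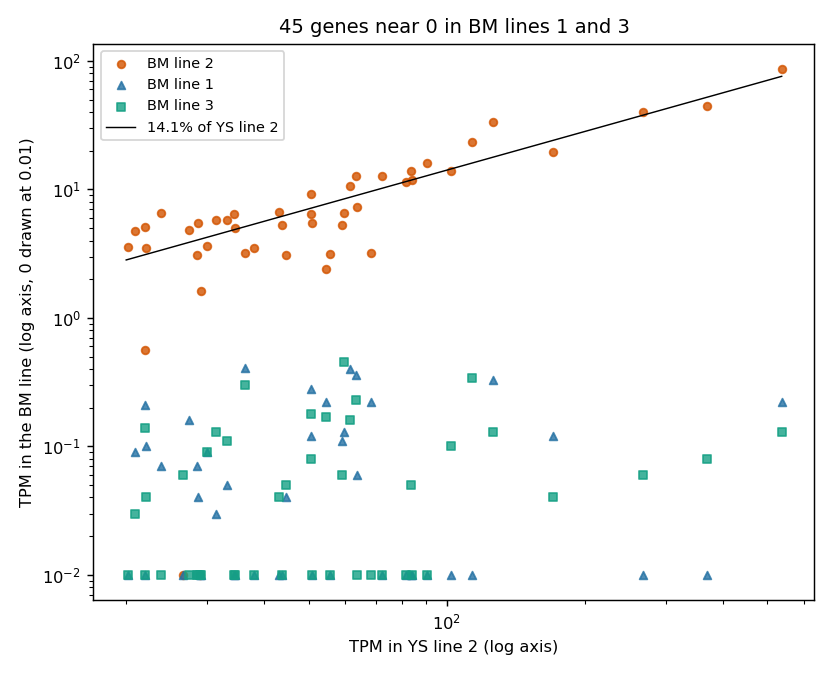
TPM in each BM line (vertical log axis, 0 drawn at 0.01) against TPM in YS line 2 (horizontal log axis) for the 45 genes at no more than 0.5 TPM in BM lines 1 and 3 and at least 20 TPM in YS line 2. Nearly all points of BM line 2 lie along the line for 14.1% of YS line 2, while those of BM lines 1 and 3 lie under 0.5 TPM.

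Of the 11411 genes tested, 1474 (12.9%) were called different between YS and BM lines, which required an adjusted p under 0.1 and a difference over 2-fold. They divided into 859 higher in YS lines (7.53% of genes tested) and 615 lower (5.39%). Counts for gene lists and chromosomes below stand beside these shares, and a count near them does not set a list apart. Without BM line 2, 894 were higher (7.83%) and 599 lower (5.25%). The 2 fits shared 1350 calls in the same direction and had none in opposite directions. TPM put the median gene 0.10 higher in YS lines on the log2 scale. Quantile normalization brought that median to -0.01 and gave 741 genes higher and 756 lower. The values of the 3 YS lines did not overlap those of the 3 BM lines in 5641 genes (49.4%), so a gene whose groups are apart is common in this comparison, and 1410 of the 1474 called genes were such. With 3 lines against 3, an exact permutation test of a single gene cannot give a two-sided p under 0.1. Adjusted p-values below are from limma over all genes tested.

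**Figure D2:**
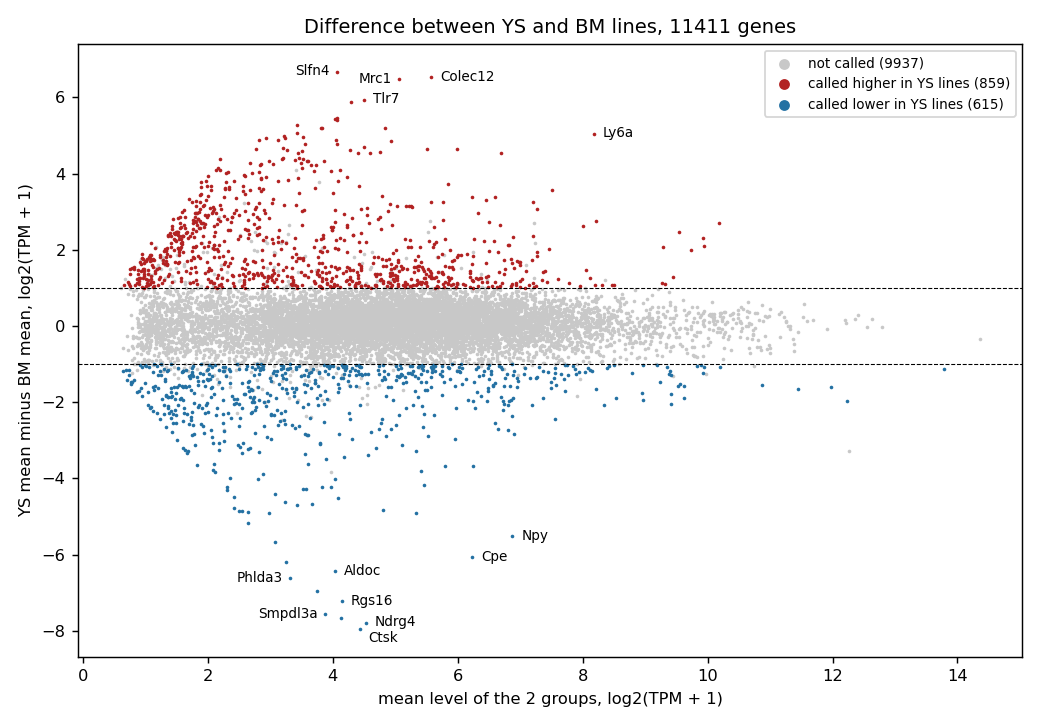
Difference between YS and BM lines (vertical axis, mean of the YS lines minus mean of the BM lines on the log2(TPM + 1) scale) against the mean level of the groups (horizontal axis, same scale) for 11411 genes. The 859 genes called higher in YS lines and the 615 called lower lie beyond the dashed lines at 2-fold.

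Interferon-stimulated genes were mostly higher in YS lines. Type I interferon acts through the receptor subunits Ifnar1 and Ifnar2 and a complex of STAT and IRF factors, which binds a promoter sequence called the interferon-stimulated response element (ISRE) and turns on antiviral effectors. Of the 42 effectors tested, 28 were called higher in YS lines (32 without BM line 2), against 7.53% of all genes, and limma called 0 lower, also at an unadjusted p under 0.05. The median log2 difference of the 42 was 1.75, and 2.22 without BM line 2, against 0.10 for all genes tested. Of 17 interferon-inducible GTPases, which attack the vacuoles of intracellular pathogens, 13 were called higher, with or without BM line 2 (median 1.92; 2.35 without BM line 2). All YS values lay above all BM values in 24 of the 42 effectors and 8 of the 17 GTPases, so some called genes overlapped between the groups. The count for the effectors was 16 without BM line 3, and that for the GTPases was 8 without BM line 1, YS line 2 or YS line 3 and 7 without BM line 3.

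The levels showed which lines made up this difference. Mx1, which belongs to a family of interferon-induced GTPases, reached 39.2, 68.37 and 104.71 TPM in YS lines 1 to 3, against 0.22, 3.22 and 0 TPM in BM lines 1 to 3 (log2 difference 5.27, standard error 0.74, adjusted p = 0.00279; 5.91 without BM line 2). Iigp1, an immunity-related GTPase, was at 39.47, 128.82 and 244.67 TPM in YS lines, against 0.61, 8.65 and 0.1 TPM in BM lines (5.40, standard error 0.90, adjusted p = 0.00458; 6.35 without BM line 2). Zbp1, a sensor of Z-form nucleic acid, was at 48.58, 97.73 and 216.23 TPM in YS lines, against 2, 18.19 and 0.46 TPM in BM lines (4.54, standard error 1.05, adjusted p = 0.0149; 5.61 without BM line 2). In each of these genes YS line 3 was the highest, YS line 1 the lowest of the YS lines, and BM line 2 the highest of the BM lines. That order held widely: YS line 3 was the highest YS line in 38 of the 42 effectors and in all 17 GTPases, YS line 1 the lowest in 39 and 17, and BM line 2 the highest BM line in 41 and 16. Summed over the 42 effectors, TPM was 7649.9, 12728.3 and 16492 in YS lines and 4656.2, 6737.6 and 2393.2 in BM lines.

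The 14 effectors that were not called included Ifit1, Ifit2 and Ifit3, which bind viral RNA. Ifit1 was at 14.11, 73.35 and 143.97 TPM in YS lines, against 20.53, 59.32 and 4.31 TPM in BM lines, so the groups overlapped (log2 difference 1.52, standard error 1.01, adjusted p = 0.283; 2.35 without BM line 2). Isg15, a ubiquitin-like modifier, was not called either (2.19, adjusted p = 0.118), nor was Ifitm2 (-0.01, adjusted p = 0.958), while its relative Ifitm3, which blocks viral entry, was called higher (2.70, adjusted p = 0.0225; 3.33 without BM line 2). Upstream of the effectors, 6 of 24 interferon receptors, STATs and IRFs were called higher (8 without BM line 2). Irf7, which amplifies interferon production, was at 240.91, 255.28 and 199.74 TPM in YS lines, against 59.87, 128.17 and 18.42 TPM in BM lines (2.12, standard error 0.65, adjusted p = 0.0409; 2.75 without BM line 2). Without BM line 3 it was not called (1.39, adjusted p = 0.105). Stat2 (1.63, adjusted p = 0.0228) and Irf8 (1.54, adjusted p = 0.0046), a factor of the monocyte lineage, were also called higher. Ifnar1 was not (-0.05, adjusted p = 0.856).

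The promoters of the genes were read for the ISRE. The windows are the 300 bases from 250 before to 50 after each start site in RefSeq on the mouse build GRCm38.p6, and 8696 of the 11411 tested symbols had one. The core GAAANNGAA was searched on both strands. It stood in 100 of 631 windows of genes called higher in YS lines (15.8%), in 42 of 453 of genes called lower (9.27%) and in 628 of 7612 of genes not called (8.25%), against 9.76% of all 27025 genes with a window. Among the called genes with a window it stood in 10 of 19 effectors and in 7 of 8 GTPases, and among all tested genes of these lists with a window in 19 of 31 and in 9 of 10, so it was not more frequent in the effectors called than in the list as a whole. The sequences shown are of called genes whose match lies before the start site. They run 5′ to 3′ along the gene's strand, with the match in capitals, read on the opposite strand where the capitals begin with TTC.
Irgm2, chr11:58214893-58214941, plus strand: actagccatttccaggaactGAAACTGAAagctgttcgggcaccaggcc
Igtp, chr11:58199502-58199550, plus strand: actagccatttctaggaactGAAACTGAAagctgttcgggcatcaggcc
Tgtp2, chr11:49064254-49064302, minus strand: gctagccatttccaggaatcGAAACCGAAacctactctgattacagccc
Gbp7, chr3:142530264-142530312, plus strand: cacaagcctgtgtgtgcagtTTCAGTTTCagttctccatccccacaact
Rsad2, chr12:26456543-26456591, minus strand: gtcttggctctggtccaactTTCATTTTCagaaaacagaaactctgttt
Bst2, chr8:71537568-71537616, minus strand: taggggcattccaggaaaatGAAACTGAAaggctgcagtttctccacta
Irgm2 and Igtp encode immunity-related GTPases, and 47 of these 49 bases were identical between them. The log2 difference was 1.54 for Irgm2 and 1.47 for Igtp (adjusted p = 0.0397 and 0.065). Whether shared bases and differences go together was not tested. Tgtp2, a T cell-specific GTPase, had a log2 difference of 4.53 (adjusted p = 0.0115), Gbp7, a guanylate-binding protein, one of 2.07 (adjusted p = 0.0479), Rsad2, which encodes viperin, one of 3.12 (adjusted p = 0.0284; 3.72 without BM line 2) and Bst2, which encodes tetherin, one of 2.08 (adjusted p = 0.0122). Without BM line 3, Irgm2 (1.18, adjusted p = 0.134) and Rsad2 (2.51, adjusted p = 0.102) were not called. The YS and BM values of Igtp and Gbp7 overlapped, and neither was called without YS line 2, YS line 3, BM line 1 or BM line 3 (adjusted p between 0.118 and 0.204 for Igtp and between 0.115 and 0.158 for Gbp7). Tgtp1 and Tgtp2 are near-identical copies, as are Apol9a and Apol9b or the Bcl2a1 genes below, and how reads were split between such copies is uncertain. A match describes letters in a window and is not a measured site.

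The Schlafen family, also interferon-inducible, held the gene with the largest log2 difference among those called higher with all 6 lines. Without BM line 2 those of Colec12 (8.61), Mrc1 (8.25) and Tlr7 (7.35) were larger. Slfn4 was at 143.37, 67.02 and 492.26 TPM in YS lines, against 0.58, 1.27 and 0.28 TPM in BM lines (log2 difference 6.67, standard error 1.38; 6.89 without BM line 2). Of 7 Schlafen genes tested, 4 were called higher and 1 lower. The one lower, Slfn5, was at 0.33, 0.7 and 1.08 TPM in YS lines, against 8.46, 26.13 and 8.76 TPM in BM lines, and it was not called without BM line 2 (-2.52, adjusted p = 0.198) nor without any other single line. In FL lines Slfn4 was at 301.19, 4.17 and 165.81 TPM.

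**Figure D3:**
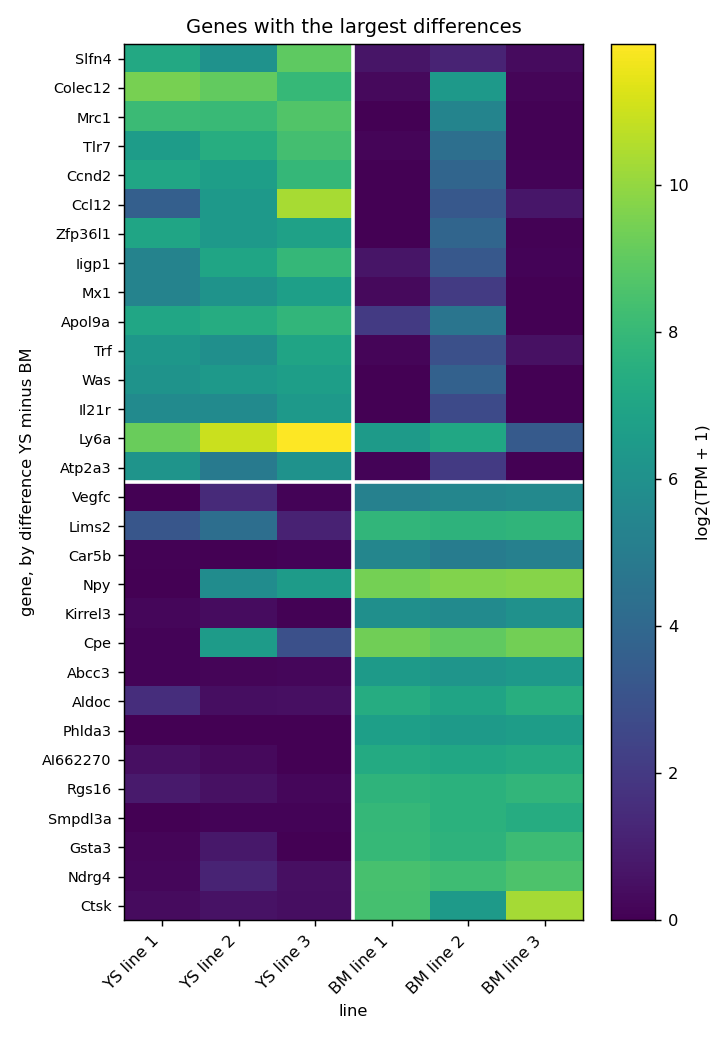
Level (colour, log2(TPM + 1)) of the 15 genes with the most positive and the 15 with the most negative difference (rows) in each YS and BM line (columns). In most of the upper rows BM line 2 stands between the YS lines and BM lines 1 and 3, and in the lower rows the 3 BM lines are alike apart from Ctsk.

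Secreted signals to other leukocytes were more often called higher than lower in YS lines. Of 12 CC chemokines tested, 6 were called higher, with or without BM line 2 (median log2 difference 1.24). Ccl5, which attracts T cells and monocytes, was at 60.97, 137.89 and 263.21 TPM in YS lines, against 1.27, 20.27 and 2.54 TPM in BM lines (4.57, standard error 1.03, adjusted p = 0.0136; 5.54 without BM line 2). Ccl12 varied widely, at 11.16, 82.86 and 1317.07 TPM in YS lines, against 0, 8.85 and 0.63 TPM in BM lines (5.45, standard error 1.64, adjusted p = 0.0383; 6.43 without BM line 2). It was not called without BM line 1 (adjusted p = 0.126) or BM line 3 (adjusted p = 0.114). Among 7 other chemokines, 4 were called higher and 1 lower, and the number higher was 2 without YS line 2 or YS line 3 and 1 without BM line 1 or BM line 3. Cxcl10, a chemokine induced by interferon, was at 66.68, 351.19 and 589.07 TPM in YS lines, against 18.47, 53.52 and 10.91 TPM in BM lines (3.37, standard error 1.02, adjusted p = 0.0385; 3.99 without BM line 2). It was not called without BM line 1 (adjusted p = 0.111) or BM line 3 (adjusted p = 0.129).

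Chemokine receptors were called in both directions. Cxcr4, the receptor that holds cells in the marrow niche through Cxcl12, was at 35.71, 25.39 and 10.19 TPM in YS lines, against 192.41, 146.75 and 183.07 TPM in BM lines (log2 difference -2.97, standard error 0.54, adjusted p = 0.0063). Of the 7 receptors tested, 3 were called higher and 2 lower, with the same counts without BM line 2. Ccr2, the receptor of circulating monocytes, did not pass the filter, at 5.94, 0.8 and 1.19 TPM in YS lines, against 0.28 TPM or less in BM lines.

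Of 18 cytokines tested, 8 were called higher in YS lines and 2 lower (8 and 1 without BM line 2, and 1 lower also without BM line 1 or BM line 3). The higher ones included Il16, a ligand of CD4, Tnfsf10, the death ligand TRAIL, and Osm, which encodes oncostatin M. Il16 was at 18.94, 13.15 and 27.56 TPM in YS lines, against 0.12, 2.22 and 0.41 TPM in BM lines (log2 difference 3.54, standard error 0.40, adjusted p = 0.00132). Tnfsf13, which encodes the B cell factor APRIL, went the other way, at 7.4, 8.85 and 16.68 TPM in YS lines, against 171.32, 137.49 and 168.14 TPM in BM lines (-3.81, standard error 0.28, adjusted p = 0.000206). Among 12 growth factors, 3 were called higher and 2 lower, and the number lower was 4 without YS line 2 and 1 without YS line 1 or BM line 3. Igf1, insulin-like growth factor 1, was at 280.15, 183.64 and 170.89 TPM in YS lines, against 38.46, 82.35 and 24.81 TPM in BM lines (2.24, standard error 0.38, adjusted p = 0.00502). Vegfc, the growth factor of lymphatic vessels, was at 0, 1.71 and 0.1 TPM in YS lines, against 36.83, 43.13 and 47.95 TPM in BM lines (-4.91, standard error 0.35, adjusted p = 0.000174).

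Macrophages sense microbes and immune complexes through Toll-like and Fc receptors. Of 21 Toll-like receptors and adaptors, 4 were called higher, with or without BM line 2. Tlr7, the endosomal receptor of single-stranded RNA, was at 96.37, 170.65 and 328.51 TPM in YS lines, against 0.12, 19.61 and 0.04 TPM in BM lines (log2 difference 5.94, standard error 1.03, adjusted p = 0.00541; 7.35 without BM line 2). Tlr9, the receptor of CpG DNA, was at 39.79, 22.33 and 17.83 TPM in YS lines, against 1.66, 3.73 and 0.39 TPM in BM lines (3.33, standard error 0.61, adjusted p = 0.0064). Tlr1, which pairs with TLR2 at the cell surface, was at 30.04, 31.49 and 31.18 TPM in YS lines, against 1.11, 6.92 and 1.62 TPM in BM lines (3.18, standard error 0.43, adjusted p = 0.0024). Tlr4, the receptor of lipopolysaccharide, and Tlr2 were not called (adjusted p = 0.582 and 0.277; both named after their values were seen).

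Of 9 Fc receptors, 4 were called higher (median 1.03; 1.25 without BM line 2). Fcgr1, the high-affinity receptor of IgG, was at 122.16, 329.94 and 286.37 TPM in YS lines, against 5.47, 42.1 and 1.68 TPM in BM lines (log2 difference 4.65, standard error 0.87, adjusted p = 0.00724; 5.77 without BM line 2). Without YS line 2, 2 of the 9 were called. All 3 subunit genes of C1q, the complement protein that recognises immune complexes and dying cells, were called higher and made up the whole count of 3 of 14 complement genes. C1qa was at 1038.89, 2750.43 and 3532.66 TPM in YS lines, against 444.08, 670.46 and 279.65 TPM in BM lines (2.30, standard error 0.52, adjusted p = 0.0137), and C1qb and C1qc differed by 2.46 and 2.10 (adjusted p = 0.00621 and 0.00802).

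Macrophages also clear dying cells and bind sugars through dedicated receptors. Of 17 uptake genes, 6 were called higher and 1 lower. Axl, a receptor tyrosine kinase for dying cells, was at 41.98, 7.59 and 15.29 TPM in YS lines, against 0.06, 0.12 and 0 TPM in BM lines (log2 difference 4.10, standard error 0.49, adjusted p = 0.00167). Its bridging ligand Gas6 was at 139.5, 431.78 and 497.91 TPM in YS lines, against 21.14, 92.61 and 12.18 TPM in BM lines (3.37, standard error 0.70, adjusted p = 0.0103; 4.19 without BM line 2). Mertk, the related receptor, was not called (0.17, adjusted p = 0.739). Axl reached 1 TPM in no BM line, so the filter fixed its direction. Of 14 C-type lectin receptors, 5 were called higher and 2 lower, and the number lower was 4 without YS line 3 and 1 without YS line 1. Colec12, a scavenger receptor with a lectin domain, was at 700.28, 537.44 and 252.79 TPM in YS lines, against 0.22, 86.17 and 0.13 TPM in BM lines, and of all called genes its difference moved most when BM line 2 was left out (6.54, standard error 1.70, adjusted p = 0.0225; 8.61 without BM line 2). Clec12a, an inhibitory receptor for uric acid crystals, was lower, at 26.98, 120.25 and 155.51 TPM in YS lines, against 478.58, 394.88 and 453.82 TPM in BM lines (-2.45, standard error 0.54, adjusted p = 0.0124).

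Antigen presentation differed in parts. Of 24 genes of the MHC class I pathway, 8 were called higher, and 5 under quantile normalization. The count was 4 without YS line 3 and 2 without BM line 3. Those called included Psmb10, a subunit of the immunoproteasome, at 161.93, 163.26 and 212.67 TPM in YS lines, against 42.46, 64.48 and 32.7 TPM in BM lines (log2 difference 1.97, standard error 0.26, adjusted p = 0.00229). Of 10 class II and costimulation genes, 5 were called higher (3 without BM line 3) and 1 lower (2 without YS line 2). Cd86, which costimulates T cells, was at 65.91, 63.74 and 59.9 TPM in YS lines, against 0.06, 7.3 and 0 TPM in BM lines (4.96, standard error 0.89, adjusted p = 0.00612; 5.96 without BM line 2). Cd80, the other ligand of CD28, was lower in YS lines, at 12.34, 9.51 and 7.09 TPM against 29.72, 15.5 and 19.22 TPM in BM lines (-1.06, standard error 0.25, adjusted p = 0.0172). It was not called without YS line 3 (-0.88, adjusted p = 0.0405) or BM line 1 (-0.81, adjusted p = 0.0582), where it fell below 2-fold. The class II chains H2-Aa and H2-Ab1 were under 1 TPM in all 6 lines.

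**Figure D4:**
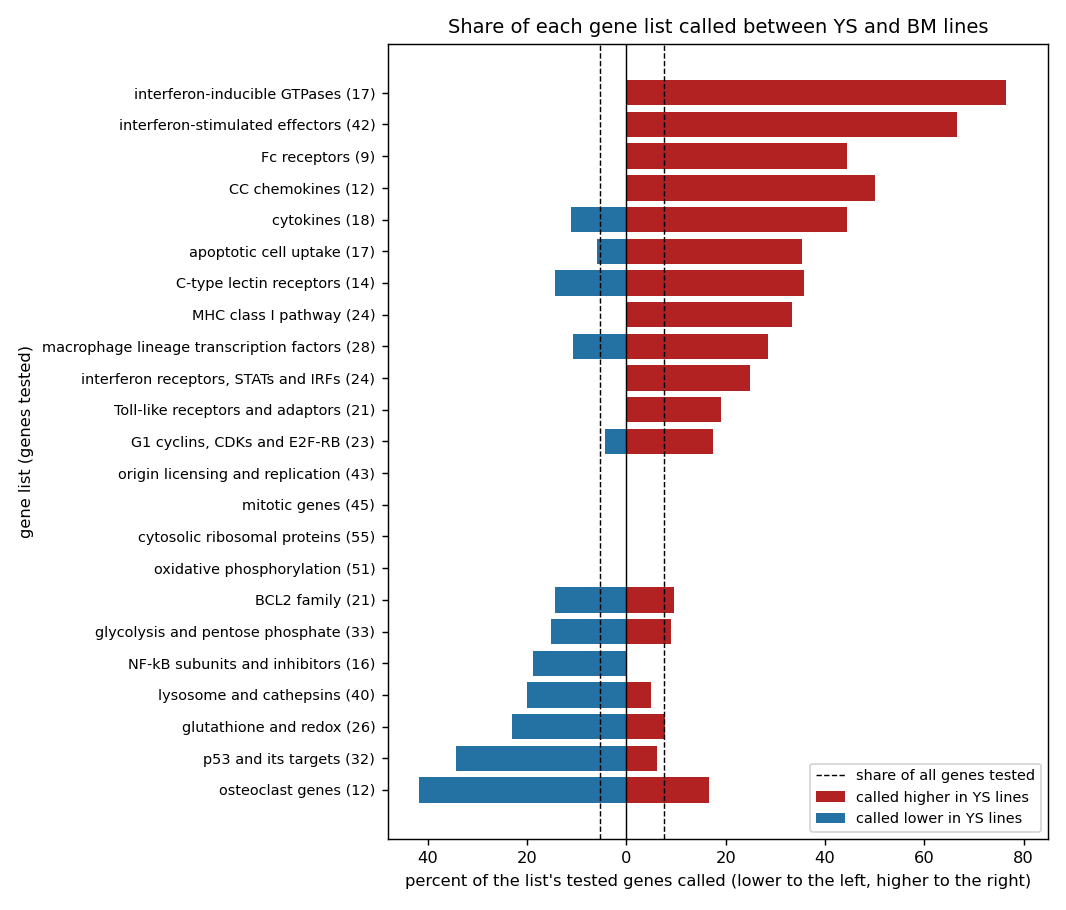
Percent of the tested genes of 23 gene lists called higher in YS lines (bars to the right) or lower (bars to the left), with the number of tested genes in brackets. The dashed lines mark the shares over all genes tested, 7.53% and 5.39%. The lists of interferon-stimulated effectors and interferon-inducible GTPases reach farthest to the right, those of osteoclast genes and p53 targets farthest to the left among the lists drawn, and 4 lists have no bar.

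The genes with the largest differences among those higher in BM lines included single enzymes and signaling proteins that were near 0 in all YS lines. Others of them, such as Cpe at 0.07, 93.09 and 6.56 TPM in YS lines, were not. Gsta3, a glutathione S-transferase, was at 0.11, 0.68 and 0 TPM in YS lines, against 253.43, 210.46 and 284.44 TPM in BM lines (log2 difference -7.66, standard error 0.60, adjusted p = 0.000262). Rgs16, which switches off G protein signaling, was at 0.8, 0.46 and 0.15 TPM in YS lines, against 218.28, 197.12 and 230.58 TPM in BM lines (-7.22, standard error 0.19, adjusted p = 3.27e-07). Ndrg4, known from neurons and heart, was at 0.15, 1.29 and 0.42 TPM in YS lines, against 353.62, 293.08 and 389.97 TPM in BM lines (-7.79, standard error 0.31, adjusted p = 3.25e-06). BM line 2 lay within 1.5-fold of BM lines 1 and 3 in all 3 genes. Gsta3 and Rgs16 reached 1 TPM in no YS line, so the filter fixed their direction. Npy, which encodes neuropeptide Y, was at 695.67, 821.82 and 872.84 TPM in BM lines and at 0, 55.33 and 91.7 TPM in YS lines, with YS line 1 apart from the other YS lines (-5.52, standard error 1.54, adjusted p = 0.0291).

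Bone-resorbing and lysosomal enzymes were among the genes higher in BM lines. Of 12 osteoclast genes, 5 were called lower in YS lines and 2 higher (5 and 1 without any single one of BM lines 1 to 3, YS line 1 or YS line 2). Ctsk, the collagen-cleaving cathepsin of osteoclasts, was at 0.28, 0.49 and 0.34 TPM in YS lines, against 333.37, 90.21 and 1270.2 TPM in BM lines (log2 difference -7.95, standard error 0.80, adjusted p = 0.000901; -8.90 without BM line 2). Siglec15, a receptor needed for osteoclast fusion, was at 1.75, 10.18 and 0.36 TPM in YS lines, against 38.48, 34.67 and 54.95 TPM in BM lines (-3.63, standard error 0.77, adjusted p = 0.0112). Itgb3, which forms the osteoclast's vitronectin receptor, went the other way, at 31.31, 14.58 and 2.47 TPM in YS lines, against 0, 0.41 and 0 TPM in BM lines (3.42, standard error 0.68, adjusted p = 0.00882). Ctsk reached 1 TPM in no YS line and Itgb3 in no BM line, so the filter fixed their directions.

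Of 40 lysosomal genes, 8 were called lower in YS lines and 2 higher (7 and 2 without BM line 2), with a median of -0.24 against 0.10 for all genes. The lower ones included Lipa, the acid lipase, and Npc1, the cholesterol exporter. Lipa was at 143.7, 284.34 and 405.91 TPM in YS lines, against 999.76, 921.31 and 1019.57 TPM in BM lines (log2 difference -1.94, standard error 0.32, adjusted p = 0.00451). The higher ones were Ctsc and Lgmn, both of which activate other proteases. Ctsc was at 762.62, 503.55 and 317.57 TPM in YS lines, against 19.25, 71.54 and 5.58 TPM in BM lines (4.54, standard error 0.76, adjusted p = 0.0046; 5.43 without BM line 2). Ctss, a cathepsin of antigen processing, was lower in YS lines (-1.65, standard error 0.23, adjusted p = 0.00279), while Ctsb and Ctsd were not called (adjusted p = 0.844 and 0.497).

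Genes of glutathione and redox metabolism were called lower in 6 of 26 and higher in 2, with the same counts without BM line 2 (median -0.56), and lower in 3 without BM line 3. The genes were not all the same: without BM line 2, Gclm lost its call (-1.36, adjusted p = 0.11) and Mgst3 gained one (-1.14, adjusted p = 0.00373). Gclm kept its call without YS line 2 and lost it without each other line (adjusted p between 0.108 and 0.143). Nqo1, a quinone reductase, was at 0.38, 0.1 and 0 TPM in YS lines, against 34.46, 26.46 and 38.46 TPM in BM lines (log2 difference -4.88, standard error 0.86, adjusted p = 0.00592). Many such genes answer to the factor NRF2 through the antioxidant response element, whose core TGACNNNGC stood in the windows of 3 of the 6 genes called lower (Gsta3, Srxn1 and Gclm), of 6 of the 23 tested genes of the list with a window, in 17.4% of those of all tested genes and in 14% of all genes with a window. That of Gsta3, the gene of the list with the largest fall, held it before the start site, in capitals below, along the gene's strand.
Gsta3, chr1:21240444-21240492, plus strand: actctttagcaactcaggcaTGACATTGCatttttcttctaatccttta
Nfe2l2, which encodes NRF2 itself, was not called (0.18, adjusted p = 0.218), and the group also held genes higher in YS lines, such as Gstp1 at 35.14, 9.23 and 2.05 TPM against 0, 0.61 and 0 TPM in BM lines (3.15, standard error 0.74, adjusted p = 0.0161). Gsta3 and Nqo1 passed the filter through BM lines alone and Gstp1 through YS lines alone, which fixed their directions.

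Targets of p53, the factor that halts growth or kills cells after damage, were more often lower than higher in YS lines. Of 32 tested, 11 were called lower and 2 higher, with or without BM line 2 (1 higher without YS line 1), and the median was -0.63 against 0.10 for all genes. Ccng1, an atypical cyclin, was at 40.46, 50.09 and 55.01 TPM in YS lines, against 268.98, 198.62 and 213.33 TPM in BM lines (log2 difference -2.20, adjusted p = 0.00207). Mdm2, the ubiquitin ligase that removes p53, was at 37.77, 39.85 and 56.72 TPM in YS lines, against 199.53, 159.19 and 167.37 TPM in BM lines (-1.96, adjusted p = 0.00724). Eda2r was listed at 0 in all YS lines and was at 13.8, 9.87 and 11.33 TPM in BM lines. Phlda3, an inhibitor of AKT, was likewise listed at 0 in all YS lines and was at 106.56, 89.99 and 97.48 TPM in BM lines. For Eda2r and Phlda3 the filter fixed the direction, since both passed through BM lines alone.

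The 2 genes of this list higher in YS lines were Trp53 itself (1.14, adjusted p = 0.005; 1.00, under 2-fold, without YS line 1) and Cdkn1a, which encodes the cell cycle inhibitor p21. Cdkn1a was at 23.98, 81.41 and 83.47 TPM in YS lines, against 0, 11.5 and 0 TPM in BM lines (log2 difference 4.59, standard error 1.09, adjusted p = 0.0167; 5.80 without BM line 2). It thus stood opposite to the 11 targets called lower. The half-site of the p53 consensus stood in the windows of 3 of the 8 targets called lower that had one, in both of those called higher, in 12 of all 26 tested genes of the list with a window, and in 9.55% of all genes with a window. Those of Ccng1 and Mdm2 are shown with the half-site in capitals, since both were lower in each YS line.
Ccng1, chr11:40755442-40755491, minus strand: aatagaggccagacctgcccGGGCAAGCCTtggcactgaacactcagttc
Mdm2, chr10:117710915-117710964, minus strand: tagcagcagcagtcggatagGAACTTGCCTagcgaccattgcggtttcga

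Few genes of proliferation were called. No gene of 43 for origin licensing and replication, of 45 mitotic genes, of 55 cytosolic ribosomal proteins or of 51 oxidative phosphorylation genes was called by limma. At an unadjusted p under 0.05 the numbers higher and lower were 23 and 4 for replication, 6 and 5 for mitosis, 12 and 3 for ribosomal proteins and 9 and 12 for oxidative phosphorylation. Their medians were 0.37, 0.14, 0.21 and -0.03, against 0.10 for all genes. Of 34 ribosome biogenesis genes 1, Polr1a, was called higher (median 0.48), and 17 were higher and 0 lower at an unadjusted p under 0.05. In the network of MYC partners, Max (1.06, adjusted p = 0.00658) and Mxd1 (1.01, adjusted p = 0.0155) were called higher of 10 tested, but the list had 0 calls under quantile normalization. Of 23 G1 cyclins, CDKs and E2F or RB genes, 4 were called higher and 1 lower (5 and 0 without BM line 2, and 0 lower without YS line 3, BM line 1 or BM line 3). Ccnd3, which encodes cyclin D3, was at 123.08, 107.47 and 149.39 TPM in YS lines, against 49.91, 55.93 and 49 TPM in BM lines (log2 difference 1.27, standard error 0.16, adjusted p = 0.00186). Ccnd2, which encodes cyclin D2, was at 132, 101.92 and 246.56 TPM in YS lines, against 0, 13.97 and 0.1 TPM in BM lines (5.88, standard error 0.95, adjusted p = 0.0042; 7.16 without BM line 2). Skp2, which targets the inhibitor p27 for destruction, was at 71.62, 45.92 and 33.8 TPM in YS lines, against 18.92, 19.16 and 17.52 TPM in BM lines (1.33, standard error 0.24, adjusted p = 0.00612). Of 7 CDK inhibitors tested, Cdkn1a was the one called. Cdkn2a, which encodes p16 and ARF, was at 180.07, 143.17 and 92.18 TPM in YS lines, against 49.92, 59.52 and 63.76 TPM in BM lines, without overlap, but did not pass with the spread pooled over the 3 groups (1.20, standard error 1.21, adjusted p = 0.481). Cdkn2b, Cdkn2c, Cdkn2d, Cdkn3 and Cdkn1b were not called, with log2 differences between -0.50 and 0.33.

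In the BCL2 family, which sets the threshold of mitochondrial cell death, 2 of 21 genes were called higher in YS lines and 3 lower (2 and 4 without BM line 2), against 7.53% and 5.39% of all genes. The number lower was 5 under quantile normalization and 7 under median-of-ratios scaling. The 2 higher ones were copies of Bcl2a1, a pro-survival gene. Bcl2a1b was at 358.59, 315.49 and 278.35 TPM in YS lines, against 4.87, 53.95 and 5.31 TPM in BM lines (log2 difference 4.64, standard error 0.74, adjusted p = 0.00415; 5.70 without BM line 2). Bcl2a1a differed by 4.22 (adjusted p = 0.0227; 5.21 without BM line 2) and Bcl2a1d by 1.01, which did not pass (adjusted p = 0.112). The 3 lower ones were the pro-death genes Bok, Bmf and Pmaip1. Bok was listed at 0 in all YS lines and was at 17.47, 7.02 and 4.82 TPM in BM lines (-3.25, standard error 0.39, adjusted p = 0.00167). The filter fixed the direction of Bok, which passed through BM lines alone. Bmf was not called without YS line 2, BM line 1 or BM line 3, Pmaip1 not without YS line 1, YS line 3, BM line 1 or BM line 3, and the number lower was 1 without BM line 1 or BM line 3. Bax, the effector, had an adjusted p of 0.00663 but did not reach 2-fold (-0.91, standard error 0.17), and neither did the pro-death Bbc3 and Bad or the pro-survival Mcl1. Mcl1 was called lower without BM line 2 (adjusted p = 0.00487) and without YS line 2 (adjusted p = 0.00457), and Bbc3 without YS line 3 (-1.06, adjusted p = 0.00476). The pro-survival genes Bcl2, Bcl2l1 and Bcl2l2 were not called (differences of 0.14, 0.28 and 0.04).

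Transcription factors of the macrophage lineage divided. Of 28 tested, 8 were called higher in YS lines and 3 lower (8 and 2 without BM line 2). Maf, a factor of mature macrophages, was at 285.82, 204.59 and 187.92 TPM in YS lines, against 22.99, 51.44 and 17.44 TPM in BM lines (log2 difference 2.97, standard error 0.37, adjusted p = 0.0019; 3.41 without BM line 2). Runx3 was at 26.03, 3.32 and 18.03 TPM in YS lines, against 0, 0.14 and 0 TPM in BM lines (3.64, standard error 0.58, adjusted p = 0.00419). Since Runx3 passed the filter through YS lines alone, its direction was fixed. Spic, the factor of red pulp macrophages that recycle iron, was lower, at 0.12, 1.36 and 0.43 TPM in YS lines, against 14.58, 8.81 and 13.31 TPM in BM lines (-3.06, standard error 0.40, adjusted p = 0.00215). Pparg, which drives alveolar macrophages, was also lower, at 0.25, 2.26 and 13 TPM against 26.24, 23.58 and 16.74 TPM (-2.57, standard error 0.73, adjusted p = 0.0312).

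Genes tied to fetal life were few among those tested, and all that were called of the LIN28, IGF2BP and HMGA program were higher in YS lines (3 of 8). Igf2bp1, a fetal RNA-binding protein, was at 18.7, 8.76 and 5.16 TPM in YS lines, against 0, 1.76 and 0 TPM in BM lines (log2 difference 2.92, standard error 0.50, adjusted p = 0.00518). Igf2bp3 was at 95.41, 59.79 and 50.99 TPM in YS lines, against 21.74, 26.5 and 18.44 TPM in BM lines (1.55, standard error 0.23, adjusted p = 0.00329). Of 30 Hox genes, 7 passed the filter. Of these 7, 3 were called higher, all of the Hoxb cluster, and 2 lower, both of the Hoxa cluster. Hoxb4 and Hoxb6 reached 1 TPM in no BM line and Hoxa5 in no YS line, so the filter fixed their directions. The number higher was 1 without YS line 1, BM line 1 or BM line 3, and the number lower 1 without YS line 2, BM line 1 or BM line 3. Hoxb4 was at 4.31, 2.95 and 3.11 TPM in YS lines, against 0.06, 0.87 and 0 TPM in BM lines (1.81, standard error 0.39, adjusted p = 0.0112). Hoxa7 was at 0.3, 0 and 1.19 TPM in YS lines, against 2.85, 5.52 and 5.27 TPM in BM lines (-1.93, standard error 0.42, adjusted p = 0.0119). Hoxb6, Hoxb7 and Hoxa5 lost their call in some fits without 1 line. Of 12 developmental transcription factors, 5 were called higher (6 without BM line 2).

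Markers of tissue-resident macrophages did not move as a block. Of 13 tested, 3 were called higher and 1 lower (5 and 1 without BM line 2 or YS line 1, and 2 lower without YS line 2). Folr2 was at 6.95, 79.72 and 3.26 TPM in YS lines, against 1.15, 5.55 and 0.87 TPM in BM lines and was not called (log2 difference 2.23, standard error 0.98, adjusted p = 0.12). Pf4 reached 2121.79 TPM in YS line 2, was called higher (2.63, adjusted p = 0.0747; 3.60 without BM line 2) and lost its call without YS line 2 (1.77, adjusted p = 0.197), YS line 3, BM line 1 or BM line 3. Of 9 microglia signature genes, 3 were called higher and 1 lower (3 and 0 without BM line 2, BM line 3 or YS line 3). At an unadjusted limma p under 0.05, 3 were higher and 3 lower. Summed over the list, TPM was between 3638.36 and 4647.04 in YS lines and between 5371.72 and 5967.42 in BM lines. The one called lower was Olfml3 (-1.58, adjusted p = 0.0589). Its level was 84.09, 75.84 and 35.41 TPM in YS lines, against 134.5, 191.51 and 244.14 TPM in BM lines. P2ry12, the ADP receptor of microglia, was at 41.73, 72.13 and 40.59 TPM in YS lines, against 0, 12.76 and 0 TPM in BM lines (4.40, standard error 0.89, adjusted p = 0.00929; 5.66 without BM line 2), and the related receptors P2ry13 and Gpr34 differed by 4.24 and 3.77 (adjusted p = 0.00186 and 0.00392; 4.96 and 4.01 without BM line 2). Gpr34 reached 1 TPM in no BM line, so the filter fixed its direction.

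NF-kB and AP-1 are factors that answer to stress and inflammation. Genes of NF-kB that were called were all lower in YS lines, and those of AP-1 were called in both directions. Of 16 NF-kB subunits and inhibitors, 3 were called lower, with or without BM line 2. Tnfaip3, the inhibitor A20, was at 7.7, 16.96 and 8.63 TPM in YS lines, against 28.5, 26.13 and 36.19 TPM in BM lines (log2 difference -1.44, standard error 0.37, adjusted p = 0.0212). Of 20 AP-1 and immediate early genes, 5 were called lower and 3 higher (3 and 3 without BM line 2), with 3 lower and 1 higher without BM line 1 and 1 higher without BM line 3. Fosl1 was listed at 0 in all YS lines and was at 4.89, 7.44 and 9.12 TPM in BM lines (-2.99, standard error 0.24, adjusted p = 0.000314). As Fosl1 passed the filter through BM lines alone, its direction was fixed. Jund was higher, at 59.38, 44.11 and 48.43 TPM in YS lines, against 17.75, 21.62 and 13.38 TPM in BM lines (1.49, standard error 0.22, adjusted p = 0.00312). Among 33 glycolytic and pentose phosphate genes, 5 were called lower and 3 higher (4 and 2 without BM line 2), against 5.39% and 7.53% of all genes. The number lower was 3 without BM line 3, and the number higher was 1 without YS line 1 and 5 without YS line 2. Pgam1, a phosphoglycerate mutase, was at 485.6, 453.24 and 399.2 TPM in YS lines, against 1252.44, 1169.88 and 1416.54 TPM in BM lines (-1.52, standard error 0.15, adjusted p = 0.000846).

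Some genes were close to all or none. By a rule chosen after the data were seen, 12 genes did not exceed 0.5 TPM in any YS line and reached 20 TPM in every BM line. They were AI662270, Abcc3, Car5b, Ctsk, Cxcl14, Fgfr1, Kirrel3, Lipo1, Nqo1, Phlda3, Plscr4 and Smpdl3a. All 12 passed the filter through BM lines alone. FL lines were all high for 2 of them, all low for 3 and mixed for 7. The reverse pattern was met by 26 genes when BM line 2 was left aside and by 0 when it was counted. Among the 26 were Mrc1, the mannose receptor, Was, which links receptors to the actin skeleton, Trf, which encodes transferrin, Il21r, a cytokine receptor, and Zfp36l1, an RNA-binding protein that destabilises transcripts. Was was at 69.74, 84.05 and 101.47 TPM in YS lines, against 0, 11.87 and 0 TPM in BM lines (log2 difference 5.18, standard error 0.85, adjusted p = 0.00446; 6.41 without BM line 2). For these 26, FL lines were all high in 15, all low in 1 (Rps4l) and mixed in 10.

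The difference was spread unevenly over the chromosomes. Of the 11411 tested symbols, 10837 were matched to a chromosome in RefSeq. Over all genes tested, 5.39% were called lower in YS lines and 7.53% higher. On chromosome 19, 77 of 392 genes (19.6%) were called lower in YS lines and 13 (3.32%) higher, and the median log2 difference was -0.53, and -0.64 under quantile normalization. On chromosome 9, 80 of 596 genes (13.4%) were called higher and 17 (2.85%) lower, with a median of 0.48. Chromosome 18 had 34 of 275 genes (12.4%) lower, with a median of -0.31, and chromosome 4 had 16 of 670 (2.39%) lower, with a median of 0.34. Leaving out BM line 2 left these 4 medians at -0.56, 0.49, -0.34 and 0.33. By line, the median deviation of chromosome 19 genes from their mean over the 6 lines was -0.15, -0.33 and -0.31 in YS lines and 0.31, 0.19 and 0.31 in BM lines, and that of chromosome X genes was -0.42 in YS line 1 and between 0.05 and 0.11 in the other 5 lines. YS lines also differed among themselves on autosomes, such as chromosome 3 (0.13, 0.24 and -0.32), chromosome 8 (0.34, 0.10 and -0.23) and chromosome 9 (0.31, 0.08 and 0.26). Genes of 1 chromosome are not independent, and no test was made.

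**Figure D5:**
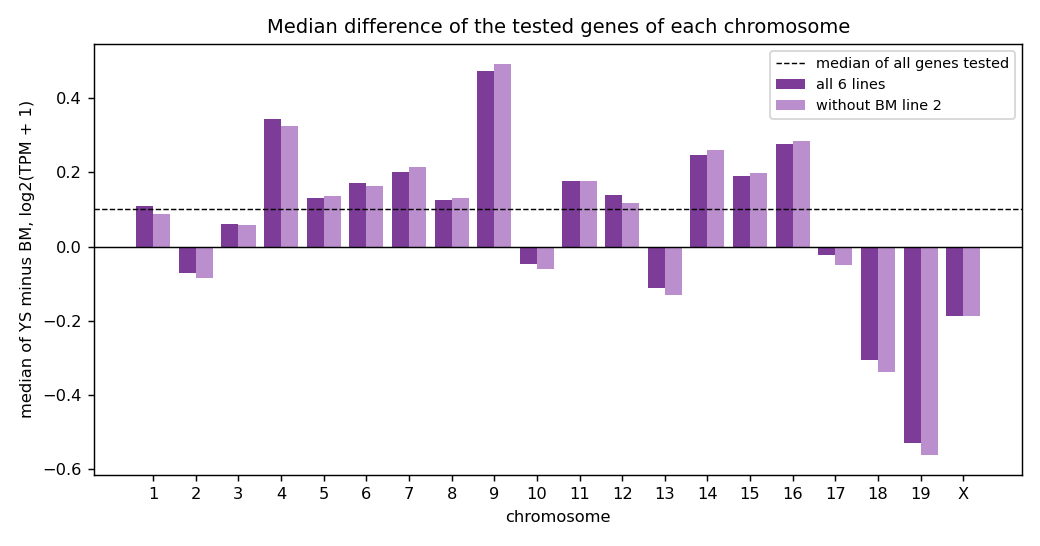
Median difference of the tested genes of each chromosome (vertical axis, mean of the YS lines minus mean of the BM lines, log2(TPM + 1)) with all 6 lines and without BM line 2. Chromosome 19 has the lowest median and chromosome 9 the highest, and the pairs of bars differ little. The dashed line marks the median of all genes tested, 0.10.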

How the data were processed

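RNA-seq libraries were made from poly(A)-selected RNA and sequenced from one end with a read length of 75 nt. The authors deposited 1 table of TPM values by gene symbol, with 2 decimals and the same total in each library. The submitters' processing notes name Trim Galore 0.6.6, STAR 2.7.9a and RSEM 1.3.3, and the genome build and annotation are not given in the sources used here. TPM depends on the other transcripts of a library and carries no read number, so neither depth nor counting error could be given and no count model was used. How RSEM divided reads between near-identical copies affects those genes.

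A gene was kept if 3 or more of the 6 YS and BM libraries reached 1 TPM. Genes at 1 TPM or more in every line of 1 group and in no line of the other passed through 1 group alone. The direction of such genes was fixed by the filter. Values were analysed as log2(TPM + 1), on which fold changes of low genes are understated, with limma 3.58.1 in R 4.3.3: 3 group means over 9 libraries, the contrast YS minus BM, an intensity trend and Benjamini-Hochberg adjustment over all genes tested. Genes were called where the adjusted p was under 0.1 and the difference exceeded 2-fold, the thresholds of the study. The procedure was tested on simulated data.

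The comparison, its members and the 69 gene lists were chosen with earlier results of these data known, so lists are described by counts and medians and were not tested. Genes named were the 15 with the largest differences in each direction among called genes whose groups did not overlap and that stayed called without BM line 2, up to 3 members of a described list in each direction, all members of a few short lists, receptors and ligands the study discusses and the 10 called genes that moved most without BM line 2. Other genes in the text, such as those given as not called, were chosen after their values were seen. Promoter windows and chromosomes came from RefSeq tables. Alternatives were other pseudocounts, filters and scalings, a fit of 6 libraries, no trend, a replicate block and leaving out lines. Some members of the lists are not reported here.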

Additional observations from a re-analysis of the deposited data

How the results depend on the processing

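The number of genes called was 1474 and stayed within 1.5 times of that under each alternative run. It was 1576 and 1026 with pseudocounts of 0.1 and 4 TPM, 1449 with no filter on low values, 1113 with a minimum of 5 TPM, 1497 with quantile normalization, 1483 with median-of-ratios scaling, 1465 with the 6 YS and BM libraries alone and 1460 without the intensity trend. Leaving out 1 line gave between 1151 (BM line 3) and 1577 (YS line 2). The line numbers were not taken to pair the lines: deviations of same-numbered lines from the group means correlated at 0.04, 0.09 and -0.11, although BM line 2 held transcripts of genes high in YS line 2. Without both of these lines 1535 genes were called, and with the replicate block 1470 genes were called, 1441 of them the same genes in the same direction. Over the named genes and all alternatives, 3592 values kept their side of the threshold, 307 fell short of it and 32 came to pass it. The direction reversed in 0 where either fit called the gene. Changes of sign in genes called in neither fit count among the 3592. Over the counts for gene lists, 1931 stayed within 1.5 times and 277 did not. The cause was not tested. The main limits are 3 cultures per group, not known to come from separate animals, a derivation that differed with origin, the unknown depth, and the transcripts in BM line 2.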

Other observations

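By a rule chosen after the data were seen, 11 genes were at 10 TPM or more in BM line 2 and at least 5 times any other of the 9 libraries. They were 7 globin genes, 3 microRNA genes and Amd1, at 15.14 TPM. Hba-a1 was at 214.99 TPM, Hba-a2 at 102.17 TPM, Hbb-b1 at 76.96 TPM and the embryonic Hbb-y at 43 TPM in BM line 2. Hba-a1 and Hba-a2 are near-identical copies, as are the adult beta-globin genes, and the split of reads between them is uncertain. YS line 2, whose genes appeared in BM line 2 as described above, held 4.79 TPM summed over the 7 globin genes. The same rule found 37 genes in YS line 1, 4 in YS line 2, 16 in YS line 3, 1 in BM line 1 and 3 in BM line 3.

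Xist, the RNA that silences an X chromosome, was at 0.08 TPM or less in all 6 YS and BM lines, and the Y-linked genes Ddx3y, Eif2s3y, Kdm5d and Uty were listed at 0 in them. Among the FL lines, Xist was at 302.67 and 176.17 TPM in FL lines 2 and 3, and Ddx3y was at 47.7 TPM in FL line 1.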
